A study of Mus musculus with 13 samples.

Results

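Cathepsins are the main proteases of the lysosome. The 10 cathepsin genes described here (Ctsa, Ctsb, Ctsc, Ctsd, Ctsf, Ctsh, Ctsk, Ctsl, Ctss and Ctsz) were picked by gene symbol from the 19737 genes of an RNA-seq table of mouse microglia, and all 10 were found. The table holds 13 libraries. Wild type mice received the vector AAV PHP.eB-EGFP (n = 3), and 5xFAD mice, a transgenic model of amyloid deposition, received the same vector (n = 2). Further 5xFAD mice received AAV PHP.eB-circPOLR2A, which carries a circular RNA (circRNA, n = 4), and 5xFAD mice with a knockout of PKR, the double-stranded RNA-activated kinase, formed the last group (PKR KO, n = 4). The series title places delivery of the circular RNA in neurons and the readout in microglia. The labels give neither the age nor the sex of the mice, do not say whether a library comes from 1 animal or several, and name no vector for the PKR KO mice, so the knockout and the lack of a named vector cannot be told apart. The numbers in brackets after circPOLR2A differ between the labels of the 4 circRNA libraries, and whether all 4 carried 1 construct is not settled.

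Most cathepsins are made as inactive precursors, carried to the lysosome by mannose 6-phosphate receptors or sortilin, and activated there by the low pH and by other proteases. Ctsd is an aspartic protease, Ctsa is a serine carboxypeptidase that also shields other lysosomal enzymes, and the other members are cysteine proteases of the papain family, which cystatins inhibit. In microglia, the resident macrophages of the brain, cathepsins degrade material taken up from outside, and Ctss also trims the invariant chain of class II molecules. Raised cathepsin transcripts are a known part of the microglial state found around amyloid plaques.

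The values are FPKM, the fragments of a gene divided by its length and by the depth of the library, so that levels of different genes can be set side by side. Depth recovered from the steps of the FPKM values was 57.7 to 70.0 M (mega) fragments per library in PKR KO. It was 45.2 to 54.9 M in the libraries of the other groups, so depth and knockout go together. The part of depth in the PKR KO comparisons was not tested. The 8 microglia markers were present in every library, with a summed level of 2430 to 4064 FPKM. Monocyte markers summed to 0.613 to 1.59 FPKM and T cell markers to 0.0104 to 0.148 FPKM. Neuron markers summed to 2.32 to 10.2 FPKM and neutrophil markers to 1.05 to 16.4 FPKM. Border macrophage markers summed to 36.0 to 57.4 FPKM in wild type and to 13.3 to 24.3 FPKM in the 5xFAD groups. Endothelial markers summed to 52.2 to 116 FPKM in wild type and to 22.5 to 65.8 FPKM in the 5xFAD groups, and mural markers to 33.8 to 78.2 and 13.2 to 34.1 FPKM. Wild type replicate 3 stood apart. Its microglia markers had a mean log2 level of 7.46 against 8.11 in both other wild type libraries, and its oligodendrocyte markers summed to 1088 FPKM against 271 and 246. Over the 10 5xFAD libraries oligodendrocyte markers summed to 151 to 538 FPKM. Astrocyte markers summed to 70.6 to 143 FPKM there and to 36.2 to 92.2 FPKM in wild type. The higher astrocyte sum rested on Gfap, at 49.6 to 116 FPKM in 5xFAD and 11.6 to 29.9 FPKM in wild type. For the astrocyte markers Aqp4, Aldh1l1 and Slc1a3 the ranges overlapped, and the highest value of each was in wild type replicate 3. Eif2ak2, which encodes PKR, was at 4.14 to 5.23 FPKM in wild type, 6.49 and 6.59 in 5xFAD with EGFP, 7.37 to 8.11 with circRNA and 3.31 to 4.61 in PKR KO. The gene was thus lower in PKR KO than in every other 5xFAD library but not near 0, and the labels do not say which part of it is deleted. With bulk libraries, fewer cells of a type and less RNA per cell cannot be told apart.

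The promoters of 8 members (9 windows, each running from 250 bases before to 50 bases after a start site) are in the RefSeq table for build GRCm38.p6; Ctsb and Ctsh are not among them. They were searched for the motif CACGTG, which factors such as TFEB and MITF can bind in promoters of lysosomal genes, for its extended form TCACGTGA, which always contains CACGTG, and for GAGGAAGT, a motif of the myeloid factor PU.1, each on both strands. CACGTG was in 4 of the 9 windows, those of Ctsa, Ctsd, Ctsf and Ctsl, and in 7.15% of the 32851 windows in the table. TCACGTGA was in the windows of Ctsa and Ctsd and in 0.974% of all windows. GAGGAAGT, read as ACTTCCTC on the gene's strand, was in those of Ctss and Ctsc and in 3.20% of all windows. For each of these 6 genes a stretch of 60 bases around 1 match is printed, to show the letters that members share, with the match in capitals, 5′ to 3′ on the gene's strand. Ctsa and Ctsd hold a further CACGTG each, and Ctsa a further TCACGTGA, outside the printed stretches.
Ctsd, chr7:142387898-142387957, minus strand: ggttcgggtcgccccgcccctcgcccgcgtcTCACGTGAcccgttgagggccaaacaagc
Ctsa, chr2:164833713-164833772, plus strand: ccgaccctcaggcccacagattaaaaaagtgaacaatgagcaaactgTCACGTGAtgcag
Ctsl, chr13:64370711-64370770, minus strand: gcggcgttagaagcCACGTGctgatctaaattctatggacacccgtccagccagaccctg
Ctsf, chr19:4855055-4855114, plus strand: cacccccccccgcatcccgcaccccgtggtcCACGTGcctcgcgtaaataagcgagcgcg
Ctss, chr3:95526732-95526791, plus strand: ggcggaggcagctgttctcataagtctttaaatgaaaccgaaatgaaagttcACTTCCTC
Ctsc, chr7:88277905-88277964, plus strand: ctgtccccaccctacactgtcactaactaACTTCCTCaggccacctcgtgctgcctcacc
A match describes the letters only, and no binding was measured.

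In wild type microglia Ctss was at 933 ± 279 FPKM (SD, n = 3) and Ctsd at 790 ± 202, and their ranges overlapped. Which of them led depends on the counting. Scaled to the exons joined over all transcripts, Ctss was above Ctsd in each of the 3 libraries, and scaled to the principal transcript it was below Ctsd in 1 of them. With the fragments of Gm49369, a gene that shares exons with Ctsd, added to those of Ctsd, a sum taken after the values were seen, Ctsd stood at 993 ± 256 FPKM, above Ctss in 3 of 3 libraries. Ctsz (206 ± 56.6 FPKM) and Ctsb (137 ± 32.0) came next with overlapping ranges, and Ctsa lay at 73.4 ± 17.0. Ctsh (33.4 ± 5.69), Ctsl (26.7 ± 7.24), Ctsc (24.1 ± 6.32) and Ctsf (16.7 ± 3.23) formed a lower tier in which each overlapped the next. Ctsk, best known as the collagen-degrading protease of osteoclasts, was at 0.506 ± 0.164 FPKM. In each of the 3 groups of 5xFAD mice the order was Ctsd, Ctss, Ctsz, Ctsb, Ctsa, Ctsl, Ctsh, Ctsc, Ctsf and Ctsk. In 5xFAD with EGFP and in PKR KO no neighbours in that order overlapped, and with circRNA Ctsz and Ctsb did. The order of other members depends on the length used as well. The exons of Ctsh, Ctsf and Ctsc, joined over all annotated transcripts, are 2.78, 2.55 and 2.33 times as long as their principal transcript, and scaled to that transcript the mean of Ctsh stood above that of Ctsl in the 5xFAD groups as well. On that scale Ctsa and Ctsh overlapped in wild type, with Ctsa the lower in 2 libraries.

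**Figure D1:**
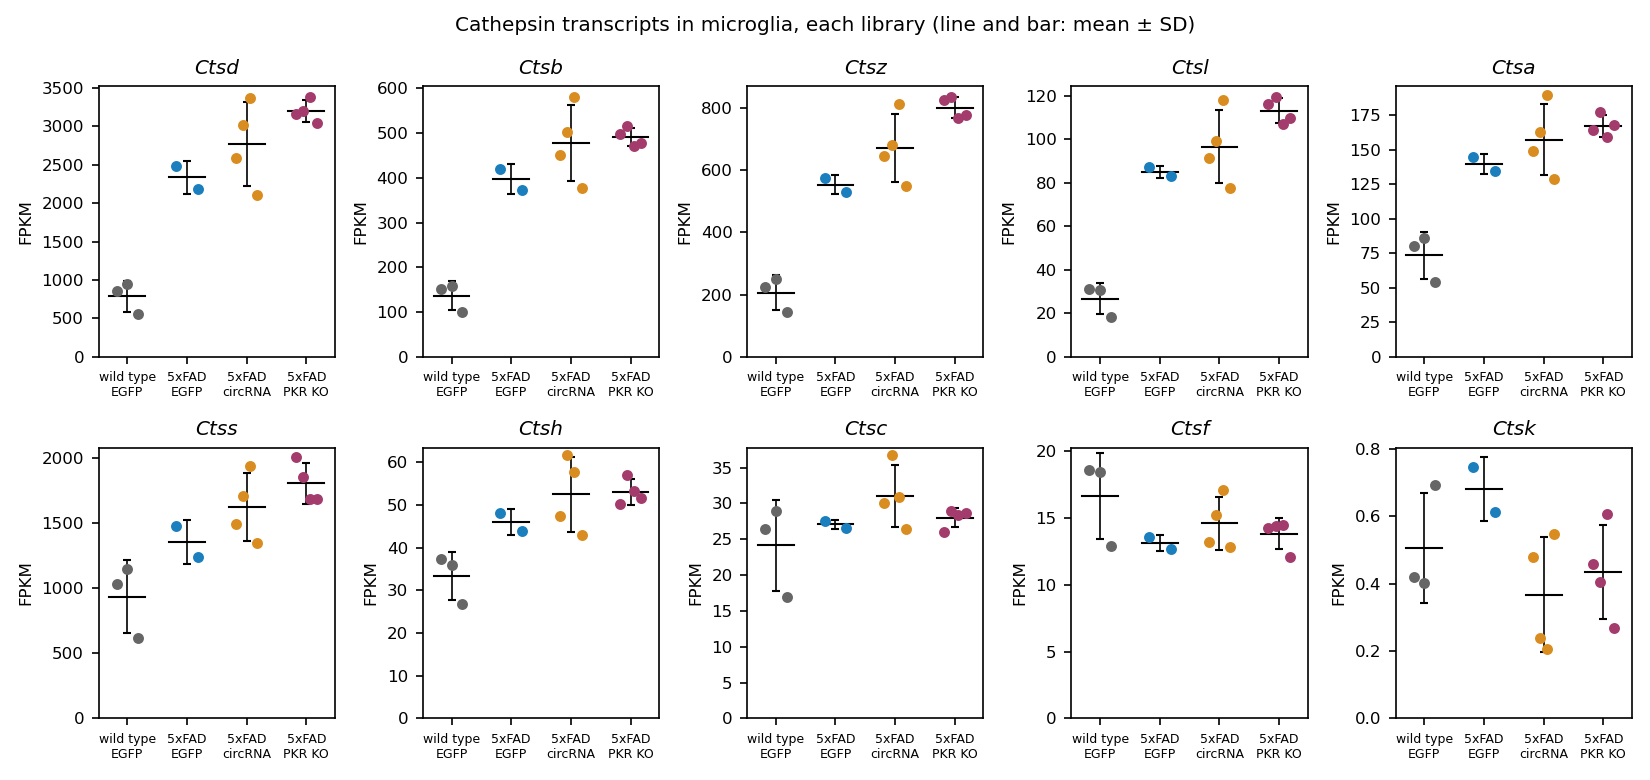
FPKM of the 10 cathepsins (vertical axis, from 0, a scale for each gene) in the 13 libraries, grouped along the horizontal axis; points are libraries, the line is the group mean and the bar its SD. For Ctsd the wild type libraries sit at 563 to 949 FPKM and the 10 libraries of 5xFAD mice at 2099 to 3382, whereas for Ctsc and Ctsf the groups overlap.

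In 5xFAD microglia with the EGFP vector, against wild type with the same vector, 5 cathepsins rose: Ctsl, Ctsd, Ctsb and Ctsz by 2.75-fold to 3.19-fold and Ctsa by 1.92-fold. No member fell. Ctsh, Ctss, Ctsc and Ctsf did not pass the test, and Ctsk was too low to be tested. The test was limma on log2(FPKM + 1) over 10817 genes (those averaging 1 FPKM or more), with Benjamini-Hochberg adjustment over all of them and a threshold of 0.05, and it called 14.0% of the genes (7.65% higher, 6.35% lower). The 5 raised members are 5 of the 9 that passed the filter. With the spread estimated from these groups alone, Ctsl and Ctsb kept their call (adjusted p = 0.0258 and 0.0399) while Ctsz (0.0620), Ctsd (0.0705) and Ctsa (0.0999) did not, and the calls over all genes went from 1514 to 393. The median change of those 9 was 0.94 on the log2 scale, against -0.03 over all genes tested.

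Ctsd was at 858, 949 and 563 FPKM in wild type and at 2482 and 2183 in 5xFAD with EGFP. The groups did not overlap, and the lower of the 5xFAD libraries was above every wild type one. The change was 1.59 ± 0.26 on the log2(FPKM + 1) scale (SE), with a limma adjusted p of 0.00188, and was not called with no filter on low values (SE 0.82, adjusted p = 0.266). Ctsd (chr7:142375911-142388038, minus strand, GENCODE M21 on GRCm38) is the main aspartic protease of the lysosome, and its value carries an uncertainty of counting. The annotated gene Gm49369 (chr7:142371096-142382667, same strand) has 1023 exonic bases, 808 of which are also exon of Ctsd. The Gm49369 value corresponded to 34.2% to 38.0% of the Ctsd fragments in every one of the 13 libraries. How the counting assigned fragments of the shared exons is not given in the sources used here. When the fragments of both were summed, the log2 difference of group means was 1.57, against 1.59 for Ctsd alone.

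Ctsl, a cysteine endopeptidase that can process other cathepsins, was at 31.2, 30.5 and 18.4 FPKM in wild type and at 87.0 and 83.0 in 5xFAD with EGFP. The lowest 5xFAD library was above the highest wild type one. The log2 change was 1.67 ± 0.21, with a limma adjusted p of 0.000269, the smallest among the members. Ctsl (chr13:64359337-64370890, minus strand) shares exon sequence with the annotated pseudogene Gm49230 on its own strand and with Gm47123 on the other strand, neither of which was analysed here.

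Ctsb, a cysteine protease that cuts both inside proteins and from their ends, was at 152, 159 and 99.9 FPKM in wild type and at 420.2 and 373 in 5xFAD with EGFP. Its log2 change was 1.56 ± 0.22 (limma adjusted p = 0.000572). Ctsz, a carboxypeptidase also known as cathepsin X, was at 224, 252 and 143 FPKM in wild type and at 577 and 532 in 5xFAD with EGFP. Its log2 change was 1.46 ± 0.23 (limma adjusted p = 0.00134). For both genes the groups did not overlap, and wild type replicate 3 was the lowest library. Ctsb lies on chr14:63122462-63145923 (plus strand) and Ctsz on chr2:174427493-174439039 (minus strand).

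Ctsa, the protective protein of the lysosomal multienzyme complex, was at 80.2, 85.9 and 54.1 FPKM in wild type and at 145 and 134 in 5xFAD with EGFP. The groups did not overlap. The log2 change was 0.94 ± 0.19 (limma adjusted p = 0.00715), and without 5xFAD EGFP replicate 1 the adjusted p was 0.0656, which ends the call. Ctsa (chr2:164832873-164841032, plus strand) overlaps exons of Pltp and Neurl2 on the other strand, Ctsb overlaps Fdft1 and Ctsz overlaps Nelfcd in the same way. The library kit keeps strand, but whether the counting used it is not given in the sources used here.

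Ctss, the protease that trims the invariant chain, was at 1033, 1148 and 618 FPKM in wild type and at 1472 and 1235 in 5xFAD with EGFP. The groups did not overlap, but the wild type spread was wide, and the log2 difference of 0.58 ± 0.27 did not pass (limma adjusted p = 0.188). Ctsh, an aminopeptidase, was at 37.4, 35.9 and 26.9 FPKM in wild type and at 48.1 and 43.9 in 5xFAD with EGFP. Its log2 difference of 0.46 ± 0.17 did not pass either (limma adjusted p = 0.0912). Together with the 5 called members, these make 7 of the 9 whose 5xFAD values all lay above the wild type values, which held for 16.5% of all genes tested.

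Ctsc, which activates serine proteases of immune granules, was at 26.5, 29.0 and 17.0 FPKM in wild type and at 27.5 and 26.6 in 5xFAD with EGFP. The 5xFAD values lay inside the wild type range, and the log2 difference was 0.19 with a 95% interval of -0.21 to 0.60 (limma adjusted p = 0.561). Ctsf, a further papain-type cysteine protease, was at 18.6, 18.4 and 12.9 FPKM in wild type and at 13.6 and 12.7 in 5xFAD with EGFP. Its log2 difference was -0.30 with an interval of -0.64 to 0.04 (limma adjusted p = 0.245). Both values moved when wild type replicate 3 was left out. The Ctsc difference was then -0.03. That of Ctsf was -0.47 with a limma adjusted p of 0.0268, so that Ctsf was called lower, as were 1012 of 10714 genes. The Ctsf difference was negative in every alternative (-0.47 to -0.22). Ctsf was also called lower when each library was rescaled to the same FPKM sum, as were 3025 of 10867 genes. It was called lower too when limma weighted the libraries, as were 1138 of 10817 genes.

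Ctsk was at 0.420, 0.402 and 0.695 FPKM in wild type and at 0.748 and 0.614 in 5xFAD with EGFP, and between 0.205 and 0.607 in the other 8 libraries. These values rest on 14 to 63 fragments per library, against at least 3037.5 for every other member. The wild type range overlapped that of each other group. The 4 circRNA libraries (0.205 to 0.548) and the 4 PKR KO libraries (0.270 to 0.607) lay below both 5xFAD libraries with EGFP. With circRNA 2.65% of the genes tested, which leave out Ctsk, were lower without overlap. The share for PKR KO is not given. In the fit with no filter on low values the log2 difference of Ctsk between 5xFAD with EGFP and wild type was 0.16 (limma adjusted p = 0.493). Against 5xFAD with EGFP it was -0.31 with circRNA (unadjusted p = 0.0309, limma adjusted p = 0.881) and -0.23 in PKR KO (limma adjusted p = 0.547), so that neither passed.

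The cell markers moved with this comparison. The microglia marker mean was lower by 0.26 (log2) in 5xFAD with EGFP than in wild type, and relative to it 8 of the 9 members were above wild type without overlap (all but Ctsf), as were 23.1% of all genes tested. The relative differences of the 5 called members ran from 1.21 to 1.94. These markers include genes of the resting state, and their part in the result was not tested. Without wild type replicate 3, the library rich in oligodendrocyte transcripts, the 5 members remained called with log2 changes of 0.74 (Ctsa) to 1.43 (Ctsl). With a covariate for the markers of neurons, astrocytes, oligodendrocytes and endothelium the 5 remained called at 0.92 to 1.65, and Ctsh was called too (0.44, limma adjusted p = 0.0137).

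**Figure D2:**
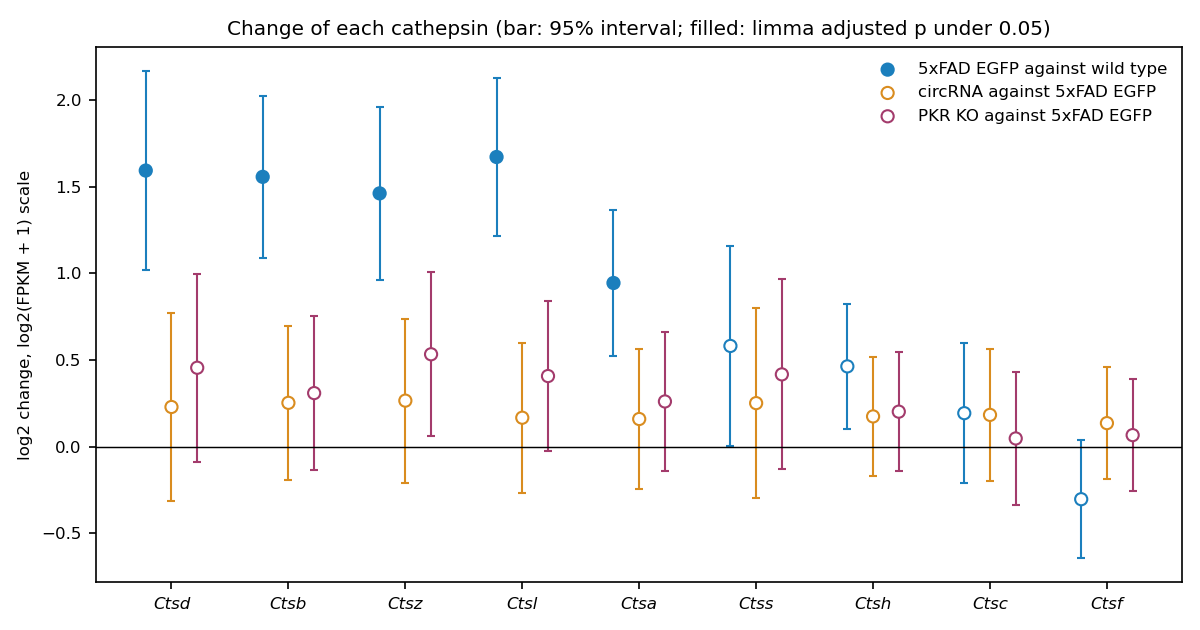
Log2 change of each tested cathepsin (vertical axis, log2(FPKM + 1) scale) for 5xFAD EGFP against wild type, circRNA against 5xFAD EGFP and PKR KO against 5xFAD EGFP; bars are 95% intervals and filled points passed a limma adjusted p of 0.05. Filled points occur for Ctsd, Ctsb, Ctsz, Ctsl and Ctsa in the comparison with wild type, and no point is filled in the other two.

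The make-up of the family is given as a description, with no test, since the ratios were chosen with the changes of their members known, and it leaves out Gm49369. Of the summed FPKM of the 10 members, Ctss held 41.4% ± 1.41 (SD, n = 3) in wild type and 27.3% ± 0.863 (n = 2) in 5xFAD with EGFP, and Ctsd 35.4% ± 0.739 and 47.1% ± 0.101. Ctsz went from 9.20% to 11.2% and Ctsb from 6.15% to 8.02%, whereas Ctsc went from 1.08% to 0.549% and Ctsf from 0.756% to 0.266%. The ratio of Ctsd to Ctss was 0.831, 0.827 and 0.911 in wild type. It was 1.69 and 1.77 in 5xFAD with EGFP, 1.56 to 1.77 with circRNA and 1.57 to 2.01 in PKR KO. The wild type libraries did not overlap those of the 5xFAD mice in this ratio, including wild type replicate 3, which was low for all members but Ctsk. The ratio of Ctsl to Ctsc was 1.05 to 1.18 in wild type, 3.12 and 3.16 in 5xFAD with EGFP, 2.70 to 3.83 with circRNA and 3.78 to 4.46 in PKR KO. All 10 members together made up 1.23% to 2.19% of all FPKM in wild type, 3.33% and 3.49% in 5xFAD with EGFP, 3.13% to 4.16% with circRNA and 4.13% to 4.57% in PKR KO.

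**Figure D3:**
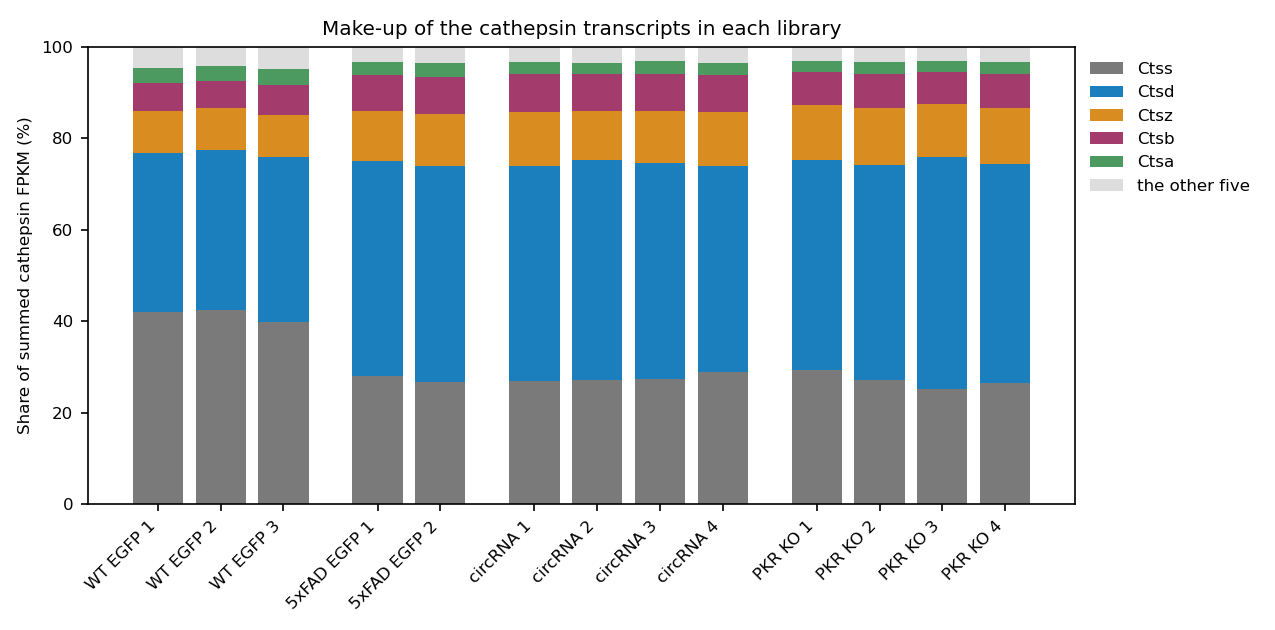
Share of the summed cathepsin FPKM (vertical axis, %) held by Ctss, Ctsd, Ctsz, Ctsb, Ctsa and the remaining members in each of the 13 libraries. Ctss takes 39.8% to 42.4% in the wild type libraries and 25.2% to 29.3% in the 10 libraries of 5xFAD mice, where Ctsd is the largest part.

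Circular RNA delivery was compared with the EGFP vector within 5xFAD mice, which asks whether the treatment changed the cathepsins in the disease model. No cathepsin passed the test, and limma called 0.0% of the 10817 genes, as did limma with voom on fragments recovered from the FPKM; 523 genes and 0 of the 9 tested members had an unadjusted p under 0.05. All 9 differences were positive and small, from 0.14 (Ctsf) to 0.26 (Ctsz) on the log2 scale, with a median of 0.18 against 0.08 over all genes tested. Quantile normalization brought them to between 0.0048 (Ctsb) and 0.13 (Ctsz). None of the 9 tested members was free of overlap between the groups, while 16.6% of all genes tested were higher without overlap and 2.65% lower.

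With circRNA, Ctsd was at 2592, 3019, 3368 and 2099 FPKM, a range that encloses the 2482 and 2183 of the EGFP libraries. The log2 difference was 0.23, with a 95% interval of -0.32 to 0.77. Ctsl was at 91.4, 99.3, 118 and 77.6 FPKM with circRNA, against 87.0 and 83.0, for a difference of 0.17 (interval -0.27 to 0.60). Ctss was at 1487, 1709, 1937 and 1345 FPKM against 1472 and 1235, for a difference of 0.25 (interval -0.30 to 0.80). The interval of each leaves room for a change of either sign, so equal levels are not shown. Ctsz was at 647, 681, 813 and 548 FPKM with circRNA, Ctsb at 452, 501, 581 and 376, and Ctsa at 149, 163, 189 and 129. Replicate 4 was the lowest and replicate 3 the highest of the 4 libraries for each of these 6 genes. Ctsh ran from 43.0 to 61.7 FPKM with circRNA, Ctsc from 26.4 to 36.8 and Ctsf from 12.8 to 17.1, and each of these ranges also overlapped that of the EGFP libraries.

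The spread among the circRNA libraries moved with the microglia markers, whose mean log2 level was 7.68, 7.97, 8.02 and 7.53 in replicates 1 to 4, against 7.66 and 7.59 in the EGFP libraries. Oligodendrocyte markers went the other way, at 525, 208, 203 and 538 FPKM in replicates 1 to 4, against 448 and 485 with EGFP. The microglia marker mean was 0.17 higher with circRNA, and relative to it the 9 differences ran from -0.04 to 0.09. The part of the markers in the cathepsin values was not tested further.

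PKR knockout was likewise compared with the EGFP vector within 5xFAD mice. No cathepsin passed the test, and 1 of the 9 (Ctsz) had an unadjusted p under 0.05, as had 1404 of the 10817 genes; limma called 9 genes (0.0832%), all higher in PKR KO. The 4 PKR KO libraries nevertheless lay above both EGFP libraries for 7 of the 9 tested members (Ctsa, Ctsb, Ctsd, Ctsh, Ctsl, Ctss and Ctsz), which held for 17.7% of all genes tested. The median difference of the 9 was 0.31 on the log2 scale, against 0.01 over all genes.

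Ctsz was at 827, 836, 768 and 777 FPKM in PKR KO, against 577 and 532 with EGFP. The log2 difference was 0.53, with a 95% interval of 0.06 to 1.01, and it did not pass (unadjusted p = 0.0305, limma adjusted p = 0.335). Ctsl was at 116, 119, 107 and 109.7 FPKM against 87.0 and 83.0, a difference of 0.41 (interval -0.03 to 0.84, limma adjusted p = 0.411). When the spread was estimated from these groups alone, both genes passed (adjusted p = 0.0376 for Ctsz and 0.0386 for Ctsl), as they did when limma weighted the libraries (0.0319 and 0.0467). Calls rose over all genes in these fits, from 9 to 541 of 10545 with the groups alone and to 822 of 10817 with the weights. The spread among the circRNA and wild type libraries was wider than among the PKR KO and EGFP ones: for Ctsz the coefficient of variation was 27.5% in wild type, 16.3% with circRNA, 5.72% with EGFP and 4.31% in PKR KO.

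Ctsd was at 3155, 3196, 3382 and 3041 FPKM in PKR KO and differed from EGFP by 0.45 (interval -0.09 to 1.00). Ctss was at 2008, 1848, 1681 and 1681 FPKM and differed by 0.42 (interval -0.13 to 0.96). Ctsb was at 499, 516, 472 and 477 FPKM and differed by 0.31 (interval -0.14 to 0.75). Ctsa was at 164, 178, 159 and 168 FPKM and differed by 0.26 (interval -0.14 to 0.66), and Ctsh, at 50.2 to 57.1 FPKM, by 0.20. For these 5 genes, too, the lowest PKR KO library was above the higher EGFP library. Ctsc (26.1 to 29.0 FPKM) and Ctsf (12.1 to 14.5 FPKM) overlapped the EGFP libraries, with differences of 0.05 and 0.07.

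The microglia marker mean differed by 0.05 (log2) between PKR KO and EGFP libraries. Relative to it, the same 7 members were above the EGFP libraries without overlap, by 0.15 to 0.48, as were 10.7% of all genes tested. Oligodendrocyte markers summed to 151 to 246 FPKM in PKR KO against 448 and 485 with EGFP, and the differences were smaller with the marker covariate. They went from 0.53 to 0.33 for Ctsz, from 0.45 to 0.24 for Ctsd, from 0.42 to 0.19 for Ctss, from 0.41 to 0.21 for Ctsl, from 0.31 to 0.12 for Ctsb, from 0.26 to 0.08 for Ctsa and from 0.20 to 0.02 for Ctsh. Quantile normalization left Ctsz at 0.58, Ctss at 0.46 and Ctsd at 0.38, and brought Ctsl to 0.17, Ctsb to 0.11, Ctsh to 0.02 and Ctsa to 0.0048.

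Against wild type, both other 5xFAD groups showed 7 raised members, the 5 above with Ctsh and Ctss. These comparisons share the wild type libraries with each other and with the first one, so they are not separate evidence. With circRNA, limma called 25.8% of all genes (17.8% higher), and the members rose by 1.84 (Ctsl), 1.82 (Ctsd), 1.81 (Ctsb), 1.73 (Ctsz), 1.10 (Ctsa), 0.83 (Ctss) and 0.64 (Ctsh) on the log2 scale. In PKR KO, limma called 37.0% of all genes (17.5% higher), and the members rose by 2.08 (Ctsl), 2.05 (Ctsd), 1.99 (Ctsz), 1.87 (Ctsb), 1.20 (Ctsa), 1.00 (Ctss) and 0.66 (Ctsh). Adjusted p ranged up to 0.0161 (Ctss) with circRNA and 0.00449 (Ctss) in PKR KO. Ctss with circRNA did not hold under quantile normalization, where its change was 0.20 with an adjusted p of 0.523, nor with those groups fitted alone (adjusted p = 0.0865) or with no filter on low values (0.282). With no filter Ctss in PKR KO (adjusted p = 0.150) and Ctsd with circRNA (0.0904) were not called either. Ctsc and Ctsf were not called in either comparison, with differences of 0.38 and -0.17 with circRNA and 0.24 and -0.24 in PKR KO. Ctsc was called higher under 2 alternatives with circRNA. Ctsf was called lower under 4 alternatives with circRNA and under 5 in PKR KO, among them quantile normalization and library weights. Of 10817 genes, quantile normalization called 1544 lower with circRNA and 1850 in PKR KO. Library weights called 1171 and 2150 lower.

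Between circRNA and PKR KO, tested directly, no cathepsin passed, while limma called 6.19% of all genes. None of the 9 had an unadjusted p under 0.05, while 2756 of the 10817 genes had. The 9 differences ran from -0.27 (Ctsz) to 0.14 (Ctsc), circRNA minus PKR KO, with a median of -0.10 against 0.08 over all genes. On the FPKM scale the groups overlapped for all 9 members, while 15.1% of all genes tested were higher with circRNA without overlap and 4.44% lower. Relative to the microglia marker mean, which was 0.12 higher with circRNA, 7 members (Ctsa, Ctsb, Ctsd, Ctsh, Ctsl, Ctss and Ctsz) lay below PKR KO without overlap, by 0.15 to 0.39, as did 5.55% of all genes tested. The direction of some of these differences depends on the setting. In the limma fit with the markers of other cells as a covariate, Ctsa (0.036), Ctsb (0.084), Ctsh (0.106) and Ctss (0.0022) were higher with circRNA, and with quantile normalization Ctsa (0.027) and Ctsh (0.0068) were, none of them past the test. Of the microglia markers, P2ry12 was at 211 to 312 FPKM with circRNA and 153 to 193 in PKR KO, and the others overlapped. The scale relative to the marker mean was chosen with earlier results of these data known, and the difference on it was not tested further.

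The other cathepsins gave 1 further change. Ctse, an aspartic protease of endosomes, was at 0.160, 0.298 and 0.131 FPKM in wild type and at 6.85 and 7.06 in 5xFAD with EGFP, and at 7.34 to 11.7 in the other 5xFAD libraries. No library of the 5xFAD mice came near the wild type ones. With a wild type mean of 0.196 FPKM, Ctse passed the filter of 1 FPKM only through the 5xFAD libraries. The change between 5xFAD with EGFP and wild type was 2.74 ± 0.16 on the log2(FPKM + 1) scale, which understates it at so low a wild type level (limma adjusted p = 3.6e-07). Even so, Ctse stayed at 0.228% to 0.384% of Ctsd in the 5xFAD libraries. Ctso, at 5.89 to 9.29 FPKM, did not pass (log2 -0.06, limma adjusted p = 0.794). Ctsw, Ctsg and Napsa were below 0.5 FPKM in all libraries, and Ctsj, Ctsq, Ctsr, Cts3 and Cts8 were listed at 0. Ctsm, Ctsll3, Cts6 and Cts7 were not analysed here.

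Of the cystatins, which inhibit cysteine cathepsins, 2 of 3 tested rose in 5xFAD with EGFP and none fell. Cst7 encodes cystatin F, which acts on Ctsc and other cathepsins inside lysosomes. It was at 3.05, 3.00 and 2.97 FPKM in wild type and at 490.5 and 487 in 5xFAD with EGFP, a log2 change of 6.93 ± 0.17 (limma adjusted p = 2e-10). The Cst7 level was thereby 0.104 to 0.175 times that of Ctsc in wild type and 17.8 and 18.3 times in 5xFAD with EGFP. Cstb, a cytosolic inhibitor, rose by 1.26 ± 0.19 (limma adjusted p = 0.00110). Cst3, which encodes secreted cystatin C, was the most abundant at 1571 to 3997 FPKM and did not pass (0.20, limma adjusted p = 0.679). Cst6 was below 0.13 FPKM in all libraries, Stfa1 was listed at 0, and Stfa2 and Stfa3 were not analysed here.

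Of the 5 genes for processing and partners, 2 rose in 5xFAD with EGFP. Glb1, the beta-galactosidase that Ctsa protects, went from 10.7 ± 2.35 FPKM (n = 3) to 25.5 ± 3.02 (n = 2), a log2 change of 1.19 ± 0.18 (limma adjusted p = 0.00112). Scpep1, a serine carboxypeptidase related to Ctsa, rose by 0.89 ± 0.17 (limma adjusted p = 0.00545). Neu1, the sialidase of the same complex, differed by 0.27, Psap by -0.05 and Lgmn, an asparaginyl protease that processes cathepsins, by -0.21, with limma adjusted p of 0.156, 0.924 and 0.617. Of the 7 genes for lysosomal sorting, Gnptab, which makes the mannose 6-phosphate tag, rose by 1.04 ± 0.15 (limma adjusted p = 0.000588), and Igf2r, a receptor for that tag, fell by 0.69 (limma adjusted p = 0.0378). M6pr, Sort1, Gnptg, Nagpa and Scarb2 did not pass, with differences from -0.29 (Sort1) to 0.32 (Gnptg). Against wild type, Neu1 (0.41 and 0.57) and Gnptg (0.53 and 0.59) were called higher with circRNA and in PKR KO. M6pr was called higher with circRNA (0.42, limma adjusted p = 0.0285; 0.29 and 0.0924 in PKR KO). Nagpa was called higher in PKR KO (0.41, limma adjusted p = 0.0441; 0.42 and 0.0529 with circRNA), and Sort1 lower (-0.45, 0.00125; -0.21 and 0.0839 with circRNA). Igf2r was called lower in PKR KO (-0.86, limma adjusted p = 0.00191) and not with circRNA (-0.42, 0.0858).

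Among the MiT/TFE factors, which bind the CACGTG motif, Mitf rose from 5.84 ± 1.18 FPKM (n = 3) to 8.93 ± 0.0286 (n = 2), by 0.55 ± 0.12 on the log2 scale (limma adjusted p = 0.0103). Tfeb (-0.08) and Tfe3 (-0.14) did not pass (limma adjusted p = 0.606 and 0.518), and Tfec was below the filter. Tfeb was called higher in PKR KO against wild type (0.20, limma adjusted p = 0.0385). All 3 tested genes of class II loading, whose products meet Ctss in endosomes, rose: Cd74, the invariant chain, by 2.19, H2-Aa by 1.68 and H2-Ab1 by 1.49 (limma adjusted p = 0.000919, 0.0102 and 0.00896). Ciita was below the filter. None of the tested genes of these related lists was called between circRNA and EGFP or between PKR KO and EGFP in 5xFAD mice.

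**Figure D4:**
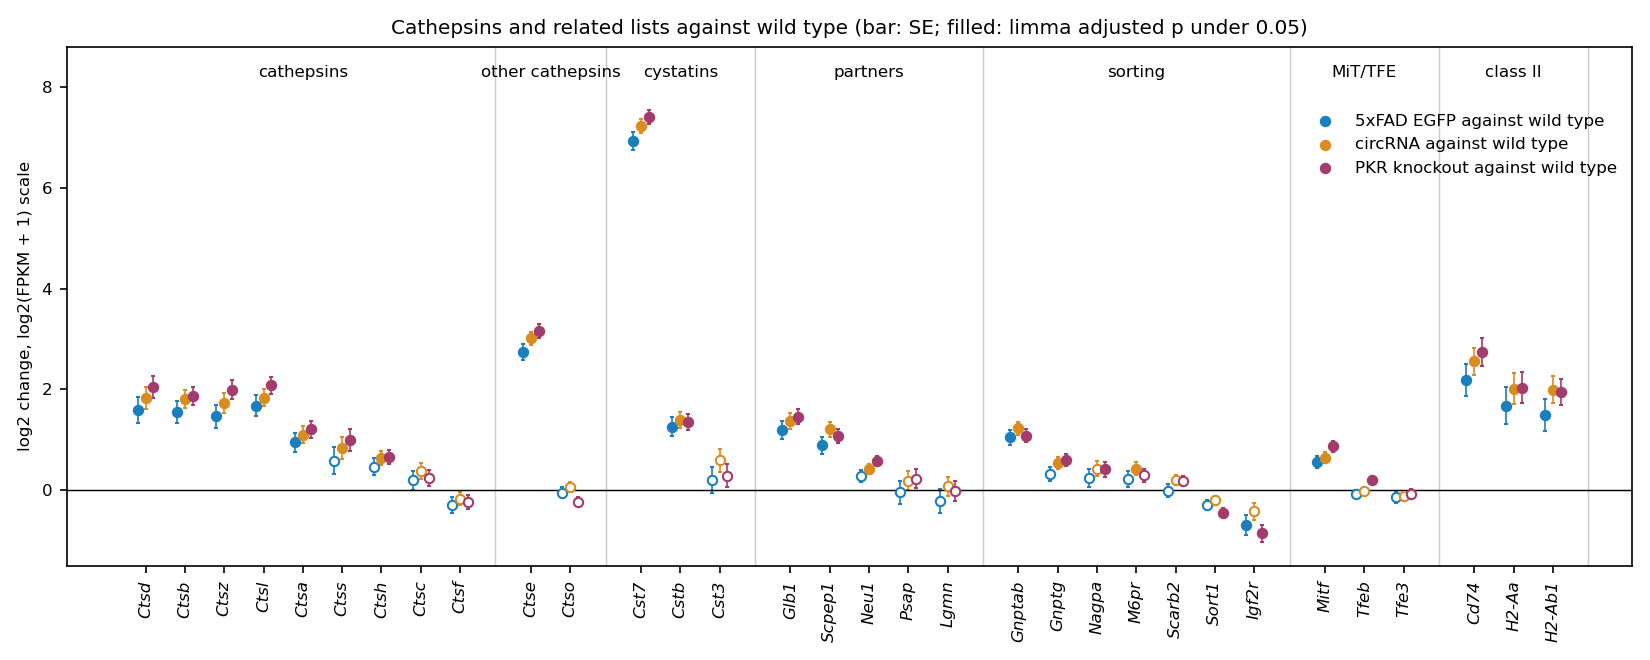
Log2 change against wild type (vertical axis, log2(FPKM + 1) scale) of the cathepsins and of the related genes, grouped by list, for the 3 groups of 5xFAD mice; bars are SE and filled points passed a limma adjusted p of 0.05. Cst7 stands far above all others at 6.93 to 7.41, Ctse follows at 2.74 to 3.16, and Igf2r and Sort1 lie below 0.

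For each tested member, the genes whose mean-centred log2(FPKM + 1) values over the 13 libraries differed least from its own (smallest root mean square difference) were listed, as a description that includes differences between groups. Leaving out the other members, the nearest gene to Ctsd was Gm49369 at 0.0427, the gene with which it shares exons, and Gm49369 was also the nearest non-member for Ctsl (0.0936) and Ctsz (0.0763). Among the members Ctsl and Ctsz were each other's nearest, at 0.0771, and Ctsl was also the nearest to Ctsd (0.0791) and to Ctsb (0.0957). The nearest other genes were Cd9 for Ctsb (0.0989), Timp2 for Ctsa (0.0639), Lag3 for Ctss (0.0698), Arhgdia for Ctsh (0.0667), Fuca2 for Ctsc (0.0733) and Gmfg for Ctsf (0.0491). Besides Gm49369, St14 was among the 3 nearest of Ctsb, Ctsd and Ctsl, while Crlf2 was so for Ctsd, Plaur for Ctsl, and Bcl2a1b and Dpp7 for Ctsz. Grn and Ly86 followed Timp2 for Ctsa, Cyba and Fcgr2b followed Lag3 for Ctss, and H2-Ob and Acsl5 followed Arhgdia for Ctsh. Pros1 and Fam111a followed Fuca2 for Ctsc, and Bid and Arl10 followed Gmfg for Ctsf.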

How the data were processed

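RNA of mouse microglia was depleted of ribosomal RNA and made into stranded libraries, per the labels' protocols. The authors deposited 1 table of FPKM values, with a column for each of the 13 libraries. The submitters' processing notes name HISAT2 2.1.0, Bowtie2 2.3.5, featureCounts 1.5.1 and build mm10, without their roles. The annotation and the strand setting are not given in the sources used here. FPKM values were tested on log2(FPKM + 1) with limma 3.58.1 in R 4.3.3, for the 10817 genes averaging 1 FPKM or more, in a model of 4 group means with 9 residual degrees of freedom, eBayes with a trend, and Benjamini-Hochberg adjustment within each of 6 comparisons. Log2 changes on this scale understate changes of low genes. P-values measure the spread between these libraries, which may be technical.

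Depth and fragments were recovered from the steps of the FPKM values and GENCODE M21 exon lengths, available for 98.26% of the genes. In values under 300 fragments, 80.88% to 87.18% were whole within 0.02 of a fragment, and 94.03% to 95.59% multiples of 0.5. In simulated data for 5xFAD EGFP against wild type (10817 genes, 200 changed), 41% of changes of 0.5, 86% of 1 and 97% of 2 log2 units were recovered.

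The members, the related lists and the cell type markers were chosen with earlier results of these data known. The text names all members, all genes of the related lists that are called in 5xFAD EGFP against wild type (all tested genes of lists of up to 5), and the 3 genes nearest to each tested member; other genes of the lists, Gm49369 and the genes overlapping members were named after their values were seen. Alternatives were other pseudocounts, filters, scalings, fits, weights, a marker covariate, a replicate block, each library left out and, chosen after seeing the data, voom on recovered fragments.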

Additional observations from a re-analysis of the deposited data

Results flagged for a closer look

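Of 20 sets of 4 libraries examined (the 10 members with circRNA and in PKR KO), 1 had a library far from the others, and chance alone marks about 1 set in 20. It was Ctsf in PKR KO, where replicate 4 was at 12.1 FPKM and the other 3 libraries lay between 14.3 and 14.5, so that its gap to the nearest was 0.904 of the whole range.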

How the results depend on the processing

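The count of cathepsins that passed in 5xFAD EGFP against wild type was 5, and 2 (Ctsb and Ctsl) when those groups were fitted alone, a fit in which Ctss with circRNA against wild type was also lost (adjusted p = 0.0865). In PKR KO against 5xFAD EGFP the count of 0 became 2 (Ctsz and Ctsl) with the groups alone and with library weights. Over all genes, those fits called 541 of 10545 and 822 of 10817. In circRNA against PKR KO the count became 2 (Ctsz and Ctsl) with library weights and 1 (Ctsc) with the marker covariate. Over all genes, these fits called 3161 and 1371 of 10817. Leaving out 1 library at a time gave counts of 4 to 6 for 5xFAD EGFP against wild type, 7 to 8 for circRNA and for PKR KO against wild type, and 0 to 0 for the other 3 comparisons. The count of 4 was without 5xFAD EGFP replicate 1 (Ctsa lost), and Ctsf, called lower, made the added call without wild type replicate 3 in all 3 comparisons. Ctsc made it with circRNA without wild type replicate 2 (0.52, adjusted p = 0.0352). Over all 20 alternatives of circRNA against wild type Ctsc was called in 2, with a smallest limma adjusted p of 0.0158. With no filter on low values Ctsd lost its call in 5xFAD EGFP (adjusted p = 0.266) and circRNA (0.0904), and Ctss in circRNA (0.282) and PKR KO (0.150), all against wild type. The labels do not say that replicate numbers pair the libraries, and the correlation of deviations does not settle it. Libraries correlating best with their own number were 1 of 3 and 1 of 4 in the larger comparisons. In PKR KO against EGFP they were 2 of 2 (r of 0.273 to 0.382, against a mean of -0.109 for other numbers). The mean correlation was higher for own than for other numbers in every comparison. With a replicate block the counts were 5, 0, 0, 7, 7 and 0, as without it. Voom gave the same 6 counts. Of 1053 single-gene alternatives, 1001 kept direction and side of the threshold, 22 passed newly, 10 no longer passed and 20 changed sign, the cause of which was not tested. The latter were, against wild type, Ctsc in PKR KO with the marker covariate (-0.024) and Ctsc in 5xFAD EGFP without wild type replicate 3 (range over libraries left out -0.032 to 0.336). In PKR KO against EGFP they were Ctsc with quantile normalization (-0.028), same-sum rescaling (-0.010) and the covariate (-0.188), and Ctsf with quantile normalization (-0.010) and the covariate (-0.079). In circRNA against PKR KO the covariate gave 0.036 (Ctsa), 0.084 (Ctsb), 0.106 (Ctsh) and 0.0022 (Ctss), and quantile normalization 0.027 (Ctsa) and 0.0068 (Ctsh). There, Ctsf was at -0.051 with median-ratio scaling and -0.034 with library weights, and 1 library left out gave -0.0057 (circRNA replicate 3) to 0.124. Likewise Ctsb ran from -0.156 to 0.052 (circRNA replicate 4), and Ctsh from -0.109 to 0.062 (circRNA replicate 4), with 0.015 and 0.0079 without circRNA replicate 1 and PKR KO replicate 2. Same-sum rescaling lowered the median of all genes to -0.17, -0.20 and -0.24 for the 3 comparisons with wild type. Ctsf was then called lower in each (-0.47, -0.44 and -0.46), as were 3025, 4719 and 5466 of 10867 genes. Ctsf was called lower in each with library weights too (adjusted p = 0.0228, 0.0183 and 0.0224), with quantile normalization in circRNA (0.0491) and PKR KO (0.0227), and with the covariate in PKR KO (0.0173), which makes 3, 4 and 5 alternatives in all. Depth limits Ctsk alone among the members, at 14 to 63 fragments. Over all genes the calls, with their range over the alternatives, were 1514 (393 to 3733), 2796 (1720 to 5714) and 3997 (1934 to 6639) for 5xFAD EGFP, circRNA and PKR KO against wild type, 0 (0 to 2) and 9 (0 to 822) for circRNA and PKR KO against 5xFAD EGFP, and 670 (146 to 3161) for circRNA against PKR KO.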
